A study of Homo sapiens with 2 samples.

Results

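The genes for 6 enzymes and 1 adaptor of B-cell receptor signalling, BLK, LYN, SYK, BLNK, PLCG2, PIK3CD and PRKCB, were examined for accessible chromatin in GM12878. GM12878 is an established human line of B lymphoblasts that carry Epstein-Barr virus, which immortalised them. A region was counted for a gene when its midpoint lay within 30 kb of the gene span, with the spans given in hg19. This gave 45 of the 23612 regions that the authors listed. Open DNA was cut and tagged with a transposase (ATAC-seq) in 2 untreated replicates of 50000 cells each, which form 1 group. The authors' result is 1 list for both replicates, with the position and a score for each region and no value per replicate. There is therefore no spread between replicates and no test, and the depth of the libraries is unknown. Cells were assayed in bulk, so a region open in few cells and a region weakly open in many cannot be told apart. No hg19 annotation of exons was used here, so a region inside a gene span is not assigned to an exon or an intron.

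When antigen binds the B-cell receptor, the Src-family kinases LYN and BLK phosphorylate the tails of its signalling chains, CD79A and CD79B. The kinase SYK docks on these tails and phosphorylates BLNK, an adaptor that brings the lipase PLCG2 to the membrane. PLCG2 makes the messengers that release calcium and activate protein kinase C, of which PRKCB is a major form in B cells, and this leads to NF-kB activation. PIK3CD encodes the leukocyte p110δ subunit of phosphoinositide 3-kinase, which makes the membrane lipid that recruits further signalling proteins. In cells transformed by Epstein-Barr virus, the viral membrane protein LMP2A is known to engage LYN and SYK.

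The DNA just before 5 gene starts is shown first, since the starts of the pathway differ widely in base composition. RefSeq promoters, in GRCh38.p14, were found for 5 of the 7 genes. For BLNK, PRKCB, SYK and PIK3CD, an annotated start lay as far from the end of the gene as the start used here, to within 5 kb. The difference was 2.52 kb for BLNK and smaller for the others. The RefSeq start of PLCG2 lay 44.6 kb farther from the end of the gene than the start used here, and its sequence is not shown. For SYK, the start called first is the closest match, 0.09 kb nearer to the gene's end than the start used here. Another SYK start lay 0.129 kb farther from the gene's end than the start used here, and its sequence is not shown. The lines below give the 250 bases before each start, 5′ to 3′ along the gene. They lie at chr10:96271570-96271819 (minus strand) for BLNK, chr16:23835733-23835982 (plus) for PRKCB, chr9:90801569-90801818 (plus) for the first SYK start and chr1:9651481-9651730 (plus) for the first PIK3CD start. A start inside SYK, at chr9:90827170-90827419 (plus), is added because of where the only SYK region lay. Capitals mark matches on either strand to any of the motifs searched except GGAA, the core of ETS factor sites, which nearly all promoters hold.
BLNK start: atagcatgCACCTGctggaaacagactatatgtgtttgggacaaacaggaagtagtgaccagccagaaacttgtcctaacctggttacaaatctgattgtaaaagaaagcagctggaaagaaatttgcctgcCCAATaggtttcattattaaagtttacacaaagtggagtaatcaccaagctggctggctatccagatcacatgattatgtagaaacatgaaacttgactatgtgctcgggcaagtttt
PRKCB start: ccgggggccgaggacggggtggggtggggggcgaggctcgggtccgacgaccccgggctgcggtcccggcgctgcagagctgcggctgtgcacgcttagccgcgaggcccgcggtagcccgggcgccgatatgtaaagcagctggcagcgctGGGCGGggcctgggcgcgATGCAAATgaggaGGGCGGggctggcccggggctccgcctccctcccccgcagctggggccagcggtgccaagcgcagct
SYK first start: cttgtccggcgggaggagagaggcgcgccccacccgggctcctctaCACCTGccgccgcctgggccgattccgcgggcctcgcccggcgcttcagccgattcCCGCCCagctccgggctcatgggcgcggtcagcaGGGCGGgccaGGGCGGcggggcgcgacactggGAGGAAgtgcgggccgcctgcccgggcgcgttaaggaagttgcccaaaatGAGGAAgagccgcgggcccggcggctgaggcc
PIK3CD first start: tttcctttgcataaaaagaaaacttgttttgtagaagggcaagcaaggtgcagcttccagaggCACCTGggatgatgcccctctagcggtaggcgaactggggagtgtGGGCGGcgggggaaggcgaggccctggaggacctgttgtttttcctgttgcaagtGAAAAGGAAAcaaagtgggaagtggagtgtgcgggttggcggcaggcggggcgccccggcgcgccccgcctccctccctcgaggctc
SYK inner start: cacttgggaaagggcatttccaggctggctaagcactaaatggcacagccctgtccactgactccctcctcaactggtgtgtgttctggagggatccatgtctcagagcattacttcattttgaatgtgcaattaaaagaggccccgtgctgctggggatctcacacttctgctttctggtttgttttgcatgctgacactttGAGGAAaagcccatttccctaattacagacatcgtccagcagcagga

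The starts used here for BLNK and PRKCB both had an accessible region in the list, yet the sequences at their matched RefSeq starts were unlike each other. For BLNK the match differed by 2.52 kb, so its sequence is not shown to lie under the region. Over 300 bases around the start, BLNK had a GC content of 42.7% and a ratio of observed to expected CpG of 0.0734, below the lower quartile of 0.229 over all 35116 RefSeq promoters. PRKCB had a GC content of 77.7% and a CpG ratio of 0.857. The first starts of SYK and PIK3CD, with no listed region, were also CpG-rich, with ratios of 0.914 and 0.782, against a median of 0.579 over all promoters. The other SYK start nearby had a ratio of 0.583, close to that median, and a GC content of 66%. Further RefSeq starts inside PIK3CD had ratios of 0.855 and 0.268. A CpG-rich sequence thus occurred at starts with and without a region, and the number of starts is too small to relate sequence and accessibility.

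Of 12 motifs searched on both strands, 7 were found at the 4 first starts. The PRKCB window held the octamer ATGCAAAT, the element bound by OCT factors, which 1.77% of all promoter windows hold. CAGGTG, a site of E proteins such as TCF3, was in the SYK, BLNK and PIK3CD windows and in 20.6% of all windows. The SYK window held GAGGAA, a PU.1-type ETS sequence (27.9% of all), in 2 places, and this motif contains GGAA. The PIK3CD window held an IRF-type sequence, GAAA repeated after 2 bases (3.57% of all). The GC box GGGCGG was in all windows but that of BLNK (45% of all), and CCAAT was in that of BLNK (34.6% of all). GGAA was in 3 of the 4 windows and in 95.5% of all. No match was found in these 4 windows for TGTGGT (RUNX, 13.1% of all), TGANTCA (AP-1, 7.71%), CCCNNGGGA (EBF-type, 8.86%), TATAAA (11.5%) or the composite ETS-IRF sequence, GGAA and GAAA separated by 2 bases (2.82%). In the window of the inner SYK start, matches were found for GAGGAA and GGAA only. In the window of the other SYK start near the first, they were found for CAGGTG and GGAA only. A match describes the letters and shows no binding.

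The regions were spread very unevenly over the pathway. The loci of the receptor-proximal kinases LYN and BLK held 14 and 13 regions, PLCG2 held 8, PRKCB 5, BLNK 4, SYK 1 and PIK3CD 0. The 45 regions lay in 1.44 Mb of sequence, or 31.2 per Mb, against 7.72 per Mb over chromosomes 1 to 22 and X. BLK and LYN together held 27 of them at 83.5 per Mb, and the other 5 loci held 18 at 16.1 per Mb. Whole chromosomes include gene-poor and unsequenced stretches, and genes of the same length elsewhere were not compared, so these densities do not show that the pathway differs from other genes.

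Set against its own chromosome, the BLK locus had 99.5 regions per Mb against 9.2 on the whole of chromosome 8, a ratio of 10.8. The LYN locus, on the same chromosome, had 72.7 per Mb, a ratio of 7.9. The PLCG2 locus had 33.5 per Mb against 6.18 on chromosome 16, and the BLNK locus 28.6 against 8.23 on chromosome 10. These are ratios of 5.42 and 3.48. The PRKCB locus, by far the longest, had 11.2 per Mb against 6.18 on chromosome 16, a ratio of 1.82. The SYK locus had 6.38 per Mb against 6.24 on chromosome 9, a ratio of 1.02 that rests on 1 region. The order was the same by covered sequence. Regions made up 10.1% of the BLK window, 6.49% of the LYN window and 2.69% of the PLCG2 window. They made up 2.31% at BLNK, 0.689% at PRKCB and 0.324% at SYK.

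**Figure D1:**
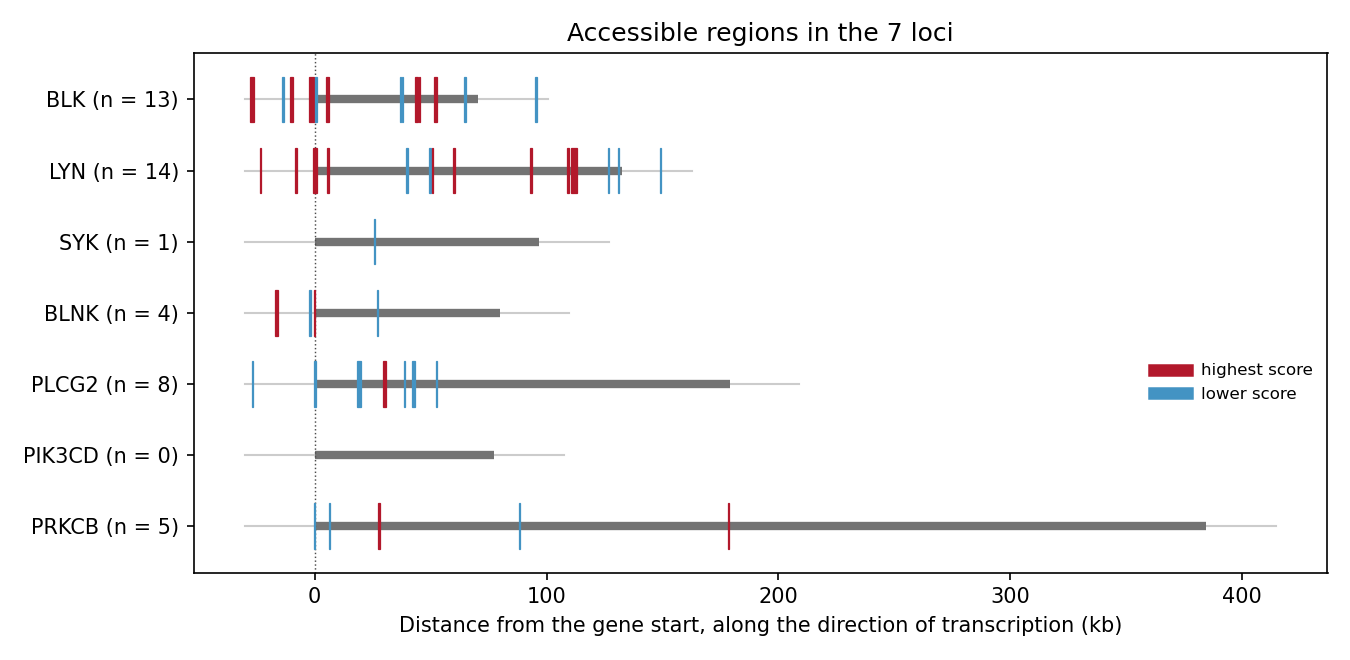
Every listed region in the 7 loci, drawn at its distance from the gene start in kb along the direction of transcription, with the gene span as a thick grey line and the 30 kb on each side as a thin one. Red marks regions at the highest score and blue those below it; regions crowd the BLK and LYN rows, stop after the first part of PLCG2, and are missing from PIK3CD.

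**Figure D2:**
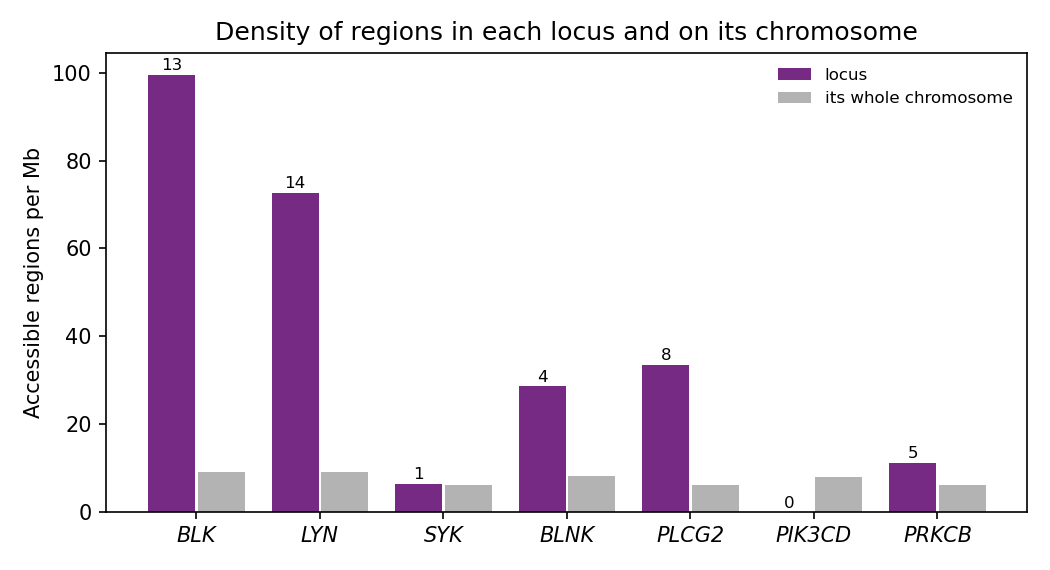
Accessible regions per Mb in each locus (purple, with the number of regions above the bar) and on the whole of its chromosome (grey). The bar reaches 99.5 per Mb for BLK and 72.7 for LYN, stands at the level of the chromosome for SYK, and is at 0 for PIK3CD.

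Of the 45 regions, 4 covered a gene start, 30 lay inside a gene with their midpoint, 9 before a start and 2 beyond a gene's end. A region came within 1 kb of the start in 5 of the 7 genes. At LYN, BLNK, PLCG2 and PRKCB a region covered the start itself. At BLK the start fell in a gap of 233 bp between 2 regions, one ending 109 bp before it and the other beginning 125 bp after it. At SYK the nearest region began 25.4 kb inside the gene, and at PIK3CD the nearest lay 62.9 kb before the gene. How many genes of the genome have a region at their start was not counted here, since no hg19 gene table was used.

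**Figure D3:**
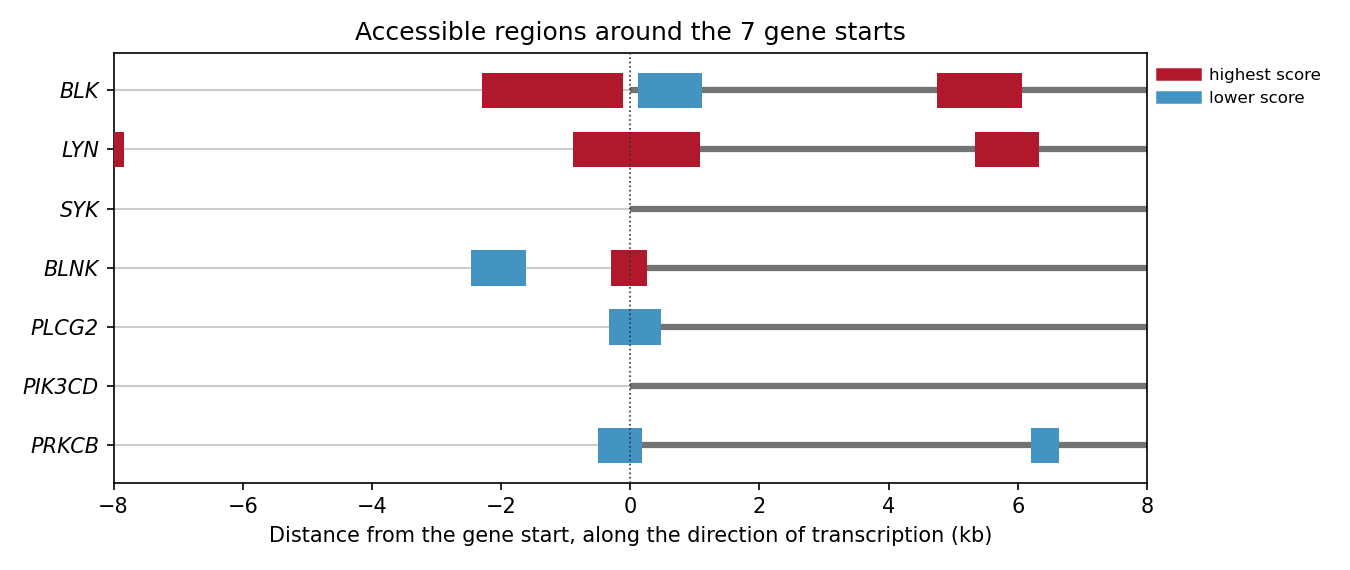
Regions within 8 kb of the 7 gene starts, by distance from the start in kb along the direction of transcription; the thick grey line is the gene, red is the highest score and blue a lower one. The start (dotted line) is covered at LYN, BLNK, PLCG2 and PRKCB, falls between 2 regions at BLK, and has no region near it at SYK and PIK3CD.

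The authors' score is a whole number that reaches its ceiling of 1000 in 60.1% of all listed regions. Its range has the form of a measure of reproducibility between the replicates, which no label states, so it is not read as strength of accessibility. It is used here only to rank regions within the list. In the 7 loci 21 of 45 regions (46.7%) were at the ceiling. The share was 59.3% at BLK and LYN, close to that of the whole list, and 27.8% (5 of 18) in the other loci. By gene it was 9 of 14 at LYN, 7 of 13 at BLK, 2 of 4 at BLNK, 2 of 5 at PRKCB, 1 of 8 at PLCG2 and 0 of 1 at SYK. The regions at the starts of LYN and BLNK and the one just before BLK were at the ceiling, whereas those at the starts of PLCG2 and PRKCB scored 722 and 760.

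The 45 regions had a median width of 695 bp, with quartiles at 535 and 1002 bp, against 756 bp, 547 and 1082 bp in the whole list. Regions at the ceiling were the wider ones, with a median of 982 bp against 556.5 bp below it, as in the whole list (953 and 556 bp). A width of 2 kb or more was reached by 2 of the 45 regions, or 4.44%, against 3.31% of the whole list. These lay inside LYN and just before BLK. The widest region outside these 2 loci had 1318 bp and lay before BLNK.

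**Figure D4:**
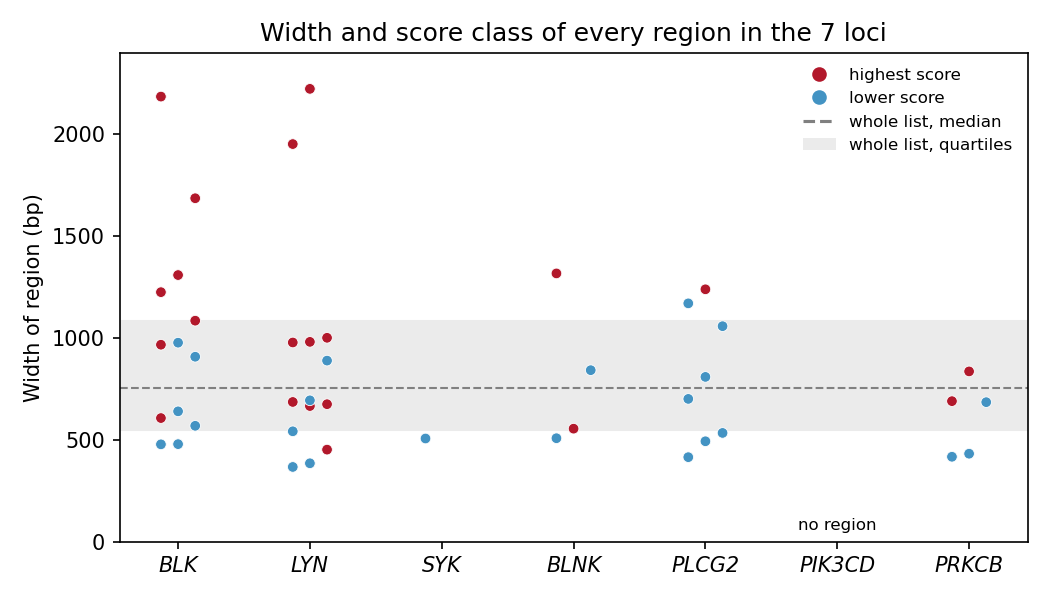
Width in bp of each of the 45 regions by locus, with red for the highest score and blue for a lower one; points are spread sideways for legibility, and the dashed line and grey band give the median and quartiles of the whole list. The widest regions, at 2224 and 2186 bp, are those of LYN and BLK, and PIK3CD has none.

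Whether regions of these loci stood closer together than others depended on the distance that counts as close. Joining neighbours across gaps no longer than the distance given in the methods put 25 of the 45 regions (55.6%) in runs of 3 or more, against 18.9% of the whole list. With gaps of at most 5 kb only 3 regions (6.67%) were in such runs, against 7.83% of the whole list, and with gaps of at most 25 kb 40 were (88.9%, against 33.6%). Among regions at the highest score, the distance used first put 9 of 21 in runs (42.9%, against 10.3%). At that distance and with all scores, of the 27 regions at BLK and LYN, 19 were in such runs, and of the other 18 regions 6 were, all of them in PLCG2. Since the loci have more regions per Mb than the list as a whole, shorter gaps between regions follow, and the 2 measures are not independent.

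BLK, a Src-family kinase found mostly in B cells, spans chromosome 8, 11351521 to 11422108, on the plus strand. Of its 13 regions 12 lay in 2 runs. The run around the start held 8 regions over 43.6 kb (11313941 to 11357582), of which 6 lay in the 30 kb window and 5 of the 8 were at the highest score. Its widest member, with 2186 bp and a score of 1000, ended 109 bp before the start (11349227 to 11351412). The region on the other side of the start was narrower, with 978 bp and a score of 884 (11351646 to 11352623). Thus the region of the pair around the BLK start with the higher score was the one outside the gene.

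Before the start, regions centred 10.0, 13.8 and 26.9 kb away had widths of 968, 909 and 1687 bp. The outer and inner of these scored 1000 and the middle one 707. By the order of genes in RefSeq, FAM167A is the next protein-coding gene on that side, and whether these regions belong to BLK or to it was not tested. Inside the gene a region of 1310 bp lay 5.4 kb from the start, after which 30.7 kb held no region.

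The run inside BLK held 6 regions over 28.3 kb (11388319 to 11416618) in the farther part of the gene, 52.5% to 91.8% of the way along it. It opened with a pair of regions of 480 and 479 bp, scored 661 and 589. Then came 3 regions of 1086, 608 and 1226 bp, centred 43.9, 45.1 and 52.2 kb from the start and all at the highest score. The last one, 641 bp wide, scored 617. A lone region of 570 bp (score 668) lay 24.6 kb beyond the end, on the side of GATA4. The high-scoring regions of this run thus lay together, 62.2% to 73.9% of the way along BLK.

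LYN, the Src-family kinase that both starts and restrains signalling from the receptor, spans chromosome 8, 56792386 to 56925006, on the plus strand. A region of 1953 bp at the highest score covered its start (56791506 to 56793458), and was the widest of the 4 that covered a start. It was the middle of a run of 3, all at the highest score, with 687 bp centred 8.2 kb before the start and 982 bp centred 5.8 kb after it. The BLK and LYN starts were thus alike in having broad regions at the highest score at or just before the start and another region at that score 5.4 and 5.8 kb inside the gene. Both genes then continued with a long stretch without a region, of 33.2 kb in LYN.

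The regions of LYN reached nearly to its end, the last centred 98.8% of the way along it, with long empty stretches between them. A run of 4 lay 30.0% to 45.2% of the way along the gene (56831916 to 56852864), with widths of 543, 890, 667 and 979 bp and scores of 619, 911, 1000 and 1000. A region of 676 bp at the highest score followed 93.4 kb from the start. At 109.3 and 111.8 kb stood a pair only 877 bp apart, of 1002 and 2224 bp, both at the highest score. The second of them (56903114 to 56905337), 84.3% of the way along the gene, was the widest region of all 45. The widest region of LYN therefore lay near its end and not at its start.

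None of the last 3 regions of the LYN locus was at the highest score. Those at 126.7 and 131.0 kb had 695 and 368 bp and scored 760 and 625. One 16.4 kb beyond the end had 386 bp and scored 547, the lowest of the 45. A region of 453 bp at the highest score lay 23.4 kb before the start, on the side of TGS1.

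SYK, the kinase that relays the signal from the receptor's tails, spans chromosome 9, 93564012 to 93660832, on the plus strand. Its only region had 508 bp and a score of 590 (93589412 to 93589919), and only 3 of the 45 regions scored lower. No region lay at the start. The next one before the SYK region was 827 kb away, ending 802 kb before the gene's start, and the next beyond the gene's end was 249 kb from it. Intervals at least as long as the one over the SYK start make up 1.95% of all intervals between neighbours, with a median of 44.1 kb, but hold 24.9% of the length of the chromosomes. Intervals of this length are thus few but cover much of the genome.

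The lone SYK region lay where RefSeq has another start of the gene. Its edges were 70.9 and 71.4 kb from the gene's end in hg19, and the inner RefSeq start lies 71.1 kb from the gene's end in GRCh38. The distances were taken within each build and no position was carried from one build to the other. The 300 bases around this start had a GC content of 49% and a CpG ratio of 0.111, where the first start had 76.7% and 0.914. This start was looked up after the region had been seen, and whether it is used in GM12878 was not measured.

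BLNK, the adaptor also known as SLP-65, spans chromosome 10, 97951455 to 98031333, on the minus strand. A compact region of 556 bp at the highest score covered its start (98031082 to 98031637). A region of 843 bp with a score of 813 lay 2.0 kb before the start, and 1 of 1318 bp at the highest score 16.5 kb before it (98047162 to 98048479), on the side of DNTT. The widest region of the BLNK locus thus lay outside the gene. Inside the gene a region of 509 bp (score 881) lay 27.0 kb from the start, and the remaining 52.6 kb held none. No region of this locus scored below 813.

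PLCG2, the phospholipase of the pathway, spans chromosome 16, 81812899 to 81991899, on the plus strand. A region of 810 bp with a score of 722 covered its start (81812567 to 81813376). The other 6 regions inside the gene formed a run of 34.7 kb (81831009 to 81865757) whose midpoints lay between 18.4 and 52.5 kb from the start. The 7 regions at the start of or inside PLCG2 thus lay in the first 29.3% of the gene, and the 126 kb that followed held none.

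Within this run, the region with the highest score was also the widest, with 1240 bp centred 30.0 kb from the start (81842234 to 81843473). The others had 535, 1059, 416, 1171 and 702 bp and scored 608, 644, 575, 803 and 851 along the gene. The wider of these did not always score higher, as the regions of 1059 and 702 bp show. A region of 494 bp (score 789) lay 26.9 kb before the start, on the side of CMIP. Dense but mostly low-scoring regions set PLCG2 apart from BLK and LYN in these values, with 1 of 8 at the ceiling against 16 of 27, a difference for which no test was available.

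PRKCB, the protein kinase C downstream of PLCG2, spans chromosome 16, 23847300 to 24231932, on the plus strand, and at 385 kb is the longest of the genes. A region of 686 bp with a score of 760 covered its start (23846794 to 23847479). By its distance from the gene's end, this start matches the RefSeq start whose window holds the octamer to within 0.004 kb. No position was carried from one build to the other. Regions of 433 and 837 bp followed at 6.4 and 27.8 kb, with scores of 910 and 1000. Farther in, a region of 418 bp (score 600) lay 88.3 kb and 1 of 691 bp (score 1000) 178.4 kb from the start (24025351 to 24026041). The remaining 206 kb of the gene and the next 318 kb held no region, so all PRKCB regions lay in the first 46.4% of the gene.

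PIK3CD, the catalytic subunit p110δ, spans chromosome 1, 9711790 to 9789172, on the plus strand, and had no region in its window of 137 kb. RefSeq has further starts 37.8 and 39.7 kb nearer to the gene's end than the one used here, and by this distance they fall within the same empty window. The nearest regions were 1 of 499 bp with a score of 633, 62.9 kb before the gene (9648436 to 9648934), and 1 of 1144 bp at the highest score, 181 kb beyond it (9970112 to 9971255). The interval between them was 321 kb, and 8.81% of all intervals are at least as long. Such intervals hold 50.8% of the length of the chromosomes. Without the depth, the lack of a region at PIK3CD and at the first SYK start cannot be read as closed chromatin.

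The authors' region numbers ran without a break through each locus and across the empty intervals around SYK and PIK3CD, with 0 numbers skipped. If the numbers were given after the filters, a removed region would leave no break. This therefore does not show that none was removed there. No region lay between 26.9 and 35.4 kb from any of the 7 gene spans. The farthest regions inside it were those 26.9 kb before PLCG2 and BLK (494 bp, score 789, and 1687 bp, score 1000). The nearest outside were 1 of 2178 bp at the highest score 35.4 kb before LYN and 1 of 525 bp with a score of 793, 35.9 kb before BLK.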

How the data were processed

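ATAC-seq was made from 2 GM12878 replicates of 50000 cells each, per the labels, which give no other group. The titles name them replicates and do not say whether they were separate cultures. The deposited file is a list that joins both replicates and holds, for each region, its position, a number and a score. No header or label names the scale of the score. The name given to the deposited list reads as a threshold of 0.05 on the irreproducible discovery rate (IDR) and as filters for mappability, mitochondrial DNA and blacklisted sequence. An IDR of 0.05 would scale to a score of 540, next to the lowest of 541, so the score may measure agreement of the replicates. The submitters' processing notes give hg19 as the build and name, with no role, MACS2 2.1.0, BWA 0.7.13, Trim Galore 0.3.3, SAMtools 0.1.19, Picard 1.92, CASAVA 1.8.4 and bedtools 2.24.0. They do not say if read ends were shifted to the transposase's cut. Such a threshold and such filters decide which regions are listed, and the labels do not describe them. The list holds no counts, so depth, and precision that needs it, are unknown.

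Regions were assigned by midpoint to the 7 gene spans with 30 kb on each side; the spans and strands came with the choice of genes. Members and lists were chosen with earlier results of these data known. Every region of the loci could be named: in full the region at or nearest the start, the widest, those of the longest run and the farthest inside the gene, the rest by number and range. Positions are counted from 1. Runs join regions with gaps up to 12.5 kb. The lengths of hg19 chromosomes came from GenomeInfoDb 1.38.1 in R 4.3.3, and other steps used Python 3.11.15, numpy 2.4.6, pandas 2.3.3, scipy 1.17.1 and matplotlib 3.10.9. The assignment, the runs and the motif search were tested on planted regions and sequences. Promoter sequences are from RefSeq, GRCh38.p14, matched by symbol; where a gene had several starts, the one closest to the start used here in its distance from the gene's end was taken, if within 5 kb. Of other genes of the pathway and of T-cell counterparts no count was made, since no hg19 annotation was used. Alternatives were other flanks, overlap in place of midpoint, the highest score only, other distances and joining gaps, and leaving out loci.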

Additional observations from a re-analysis of the deposited data

How the results depend on the processing

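Of 35 alternatives over 7 results, 25 left the value the same and 10 moved it. Only the value of each result was judged, not its comparison with the whole list. That comparison changed direction for runs joined at gaps up to 5 kb, with 6.67% of the regions against 7.83% of the whole list. It also changed direction for the median width with regions at the highest score only. The loci then had 982 bp against 953 bp in the whole list, where all scores gave 695 bp against 756 bp. A count or density was the same within 1.5 times, and the share at the highest score or the median width within its 95% binomial interval (31.7% to 62.1%, and 608 to 968 bp). These intervals treat the regions as independent, which was not shown, and measure no spread between replicates. The alternatives share regions with the main setting, so the intervals serve as a yardstick and not as a test. With regions at the highest score only, the loci held 21 regions, or 14.6 per Mb, of median width 982 bp. Chromosomes 1 to 22 and X held 14053 regions at that score in 3036 Mb. At that score 3 genes had a region at the start, and 9 regions of the loci lay in runs of 3 or more. Joining at gaps up to 5 kb left 3 regions in such runs and up to 25 kb gave 40, by the construction of the setting. Without the BLK and LYN loci, an alternative chosen after seeing the data, the density was 16.1 per Mb, the share at the highest score 27.8% and the number of regions in runs 6. The density lay between 28.5 and 31.9 per Mb with other flanks and between 24.4 and 40.1 with any 1 locus left out. No paired analysis was possible because both replicates share 1 deposited list, so neither could be left out. Depth is unknown, so a locus without regions is not shown to be closed.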
